A study of Mus musculus with 12 samples.

Results

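The genes described here are those for the proteins of the mitochondrial ribosome, and they were followed through 4 groups of PreMegEs, the bone marrow progenitors from which megakaryocytes and erythroid cells arise. Members were all features annotated as protein_coding whose symbol was Mrpl or Mrps followed by a number and at most 1 letter. The rule found 77 of the 41128 features in the count table, among 22026 protein_coding features. Of the members, 50 belong to the large subunit, including Mrps30 and Mrps18a in spite of their names, and 26 to the small subunit. Mrps36 carries the family name but is known as a part of the oxoglutarate dehydrogenase complex, and it was counted with neither subunit.

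Adult bone marrow PreMegEs were sorted from mice aged 12 to 16 weeks, all on the C57BL/6 background, and each of the 12 libraries was made from cells pooled from 3 mice. WT cells came from wild type mice. P2- and P2+ cells came from heterozygous reporter mice of one genotype, Runx1 P1-GFP::P2-hCD4/+, in which GFP reports the distal promoter P1 and a truncated human CD4 the proximal promoter P2 of Runx1, and they were separated by hCD4 on the cell surface. Both therefore carry 1 Runx1 allele altered by the reporters, which WT cells do not. RUNX1C KO cells, from mice homozygous for the P1-GFP allele, lack the isoform made from P1, and transcription from P2 remains. WT and RUNX1C KO mice have no hCD4 reporter, so their PreMegEs were not separated by it. Each group had 3 libraries, and nothing in the labels tells which mice went into which pool, so p-values measure the spread between pools. Library totals were between 10726098 and 14445026 counts, and 3 counts, the limit that a count of 0 allows, came to between 0.207 and 0.288 CPM (counts relative to the library total after TMM scaling in edgeR). Intervals and limits of this kind cover counting error only. Of the genes behind the sort, those selected for were present, with Kit at 733 to 1156 CPM and Slamf1 (CD150) at 34.1 to 65.5 CPM. Of those selected against, Ly6a (Sca1) was at 0.955 to 3.97 CPM, Fcgr3 and Fcgr2b (CD16/32) at no more than 2.01 and 17.1 CPM, but Eng (Endoglin) was at 93.9 to 152 CPM and Itga2b (CD41) at 38.7 to 320 CPM, so their RNA was present in cells sorted as negative for the protein. Itga2b also differed between the groups, with a mean of 282 CPM in P2+, 156 in WT, 115 in RUNX1C KO and 51.0 in P2- PreMegEs (log2 fold change of P2+ over P2- 2.48, SE 0.17, adjusted p = 1.22e-05 by edgeR). Replicate 2 of P2- and of P2+ stood apart by the immediate early gene Fos (1327 and 903 CPM, against 0.318 to 166 in the other libraries).

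The mitochondrial ribosome makes the few proteins encoded by the mitochondrial genome, all of them subunits of the respiratory chain and the ATP synthase. Its own proteins are encoded in the nucleus, made in the cytosol and imported. Some are homologues of bacterial ribosomal proteins, and others exist only in mitochondrial ribosomes. Factors with sites in many promoters of such genes include NRF1, GABP (an ETS factor), YY1 and Sp1. Erythroid cells need mitochondria for the synthesis of heme, and they lose them at the end of maturation.

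The members differed widely in level. Mean RPKM over the 12 libraries (CPM per kilobase of exon, available for 76 members) ran from 0.291 to 118, with a median of 9.31. Bowtie2 does not split reads over introns, so the order of genes that differ in introns is uncertain. The highest were 5 proteins of the large subunit. Mrpl34, the homologue of bacterial L34, stood first at 118 RPKM. Mrpl18 came next at 57.7 RPKM, although 38.8% of the counts of this gene and its pseudogene copy lay on the copy. Mrpl50, Mrpl36 and Mrpl41 followed at 55.6, 53.4 and 53.1 RPKM. These 4 neighbours did not keep their order between groups, since Mrpl41 was at 68.8 ± 2.57 RPKM over the P2- libraries but at 37.6 ± 5.51 over those of P2+ (SD, n = 3 each). At the low end were Mrps18c (1.13 RPKM), Mrpl13 (0.820), Mrpl23 (0.423), Mrps36 (0.297) and Mrpl53 (0.291). Mrpl53 had between 0 and 9 counts in a library and Mrps36 between 0 and 10. Neither reached the minimum of 1 CPM in 3 of 6 libraries in any comparison, and Mrps18c did not reach it for P2+ against WT. Exons of Mrpl53 overlap Gm42688 on the same and Ccdc142os on the other strand.

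The low values of some members stood beside high counts on pseudogenes. In a search of the coding sequences of 76 members against the pseudogene transcripts of GENCODE vM21, 20 members had at least 1 copy of at least 90% identity over at least 50% of their coding sequence, 33 copies in all. For 10 members the copies held more counts than the gene, and for 17 members at least 10% of the counts of gene and copies. Mrpl23 had 14 to 38 counts per library, and Mrpl23-ps1 had 878 to 1295, or 97.6% of their sum. Copies of Mrps36, Mrps18c, Mrpl42, Mrpl48, Mrps21 and Mrps33 held 90.4%, 87.2%, 84.1%, 83.0%, 82.3% and 77.9% of the sum, and those of Mrps18b, Mrpl27 and Mrps5 held 58.3%, 54.5% and 51.2%. Summed over the members, copies took between 15.5% and 17.5% of the counts in each library. The authors aligned reads with Bowtie2, which places a read without splitting it over an intron, and processed copies have no introns. Of 73 windows of 60 coding bases centred on an exon junction in these 20 genes, 46 were found unbroken, with at most 3 mismatches, in the most counted copy. A window of Mrpl23 and one of Mrps18b are shown because they show how a read over a junction can match the copy from end to end. Lower case marks the upstream exon and capitals the downstream exon, and in the copy the same bases.
Mrpl23: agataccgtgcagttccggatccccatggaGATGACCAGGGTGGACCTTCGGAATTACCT
Mrpl23-ps1: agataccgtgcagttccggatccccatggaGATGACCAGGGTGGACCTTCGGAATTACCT
Mrps18b: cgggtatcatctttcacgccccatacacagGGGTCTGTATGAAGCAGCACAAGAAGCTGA
Gm13552: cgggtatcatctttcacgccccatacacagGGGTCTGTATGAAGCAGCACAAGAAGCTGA
In Mrpl23 (GRCm38, chromosome 7, plus strand) the junction joins bases 142535127 and 142536070, 942 bases of intron apart, and the copy at chr2:74591723-74591782 (minus strand) was identical at 60 of 60 bases. In Mrps18b (chromosome 17, minus strand) it joins 35912338 and 35911478, across 859 bases of intron, and the copy at chr2:59564588-59564647 (minus strand) was again identical at 60 bases. Where the reads on the copies came from was not tested, and levels of these 17 genes are uncertain. Mrpl52 had no copy, and copies of Mrpl41 and Mrps16 held 0.0141% and 1.08% of the sum.

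**Figure D1:**
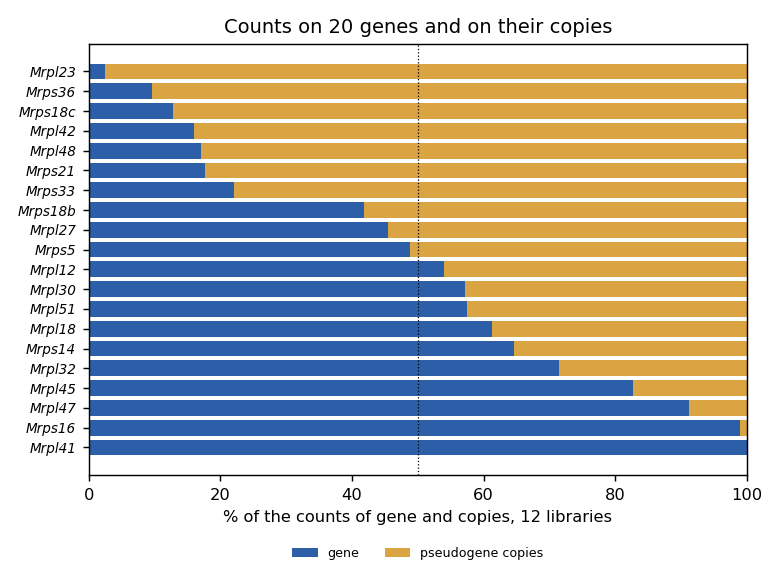
Share of the counts of each gene and its pseudogene copies (x axis, % of their summed counts over 12 libraries) for the 20 members with a copy (rows), blue for the gene and yellow for the copies. In the upper 10 rows the copies held over 50%, up to 97.6% for Mrpl23.

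The summed level of the 77 genes followed the order P2-, RUNX1C KO, WT, P2+. It was 2715, 2639 and 2608 CPM in the P2- libraries, 2557, 2475 and 2497 CPM in RUNX1C KO, 2324, 2226 and 2441 CPM in WT, and 2173, 2154 and 2167 CPM in P2+. No library of one group reached a neighbouring group, although without a scaling factor the lowest P2- library (2559) lay under the highest RUNX1C KO library (2568), and the lowest RUNX1C KO library (2451) under the highest WT library (2464). The mean in P2+ was 0.816 of that in P2- PreMegEs. As a share of all counts the members took 0.256% to 0.267% in P2- and 0.216% to 0.222% in P2+ libraries. In sorted pools, less RNA per cell and fewer cells of a kind cannot be told apart.

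**Figure D2:**
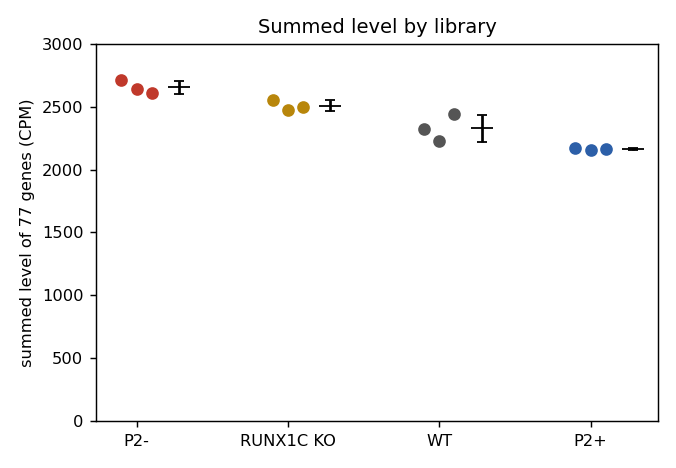
Summed level of the 77 genes (y axis, CPM, from 0) in each of 3 libraries per group (points), with the mean and SD beside them. The P2- libraries lay between 2608 and 2715 CPM and the P2+ libraries between 2154 and 2173.

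P2+ and P2- PreMegEs differ in whether the proximal Runx1 promoter is active. Of 75 members tested, 28 were lower in P2+ than in P2- PreMegEs and 0 were higher at an adjusted p under 0.05 (edgeR's quasi-likelihood test, Benjamini-Hochberg adjustment over 12836 features). Over all features tested, 17.0% were lower and 20.1% higher, 37.1% together, against 37.3% and 0 of the members. With 0 members higher, none was higher at an unadjusted p under 0.05 either, and DESeq2 and edgeR's exactTest also called 0. These fits used the group alone, although P2+ and P2- libraries of the same replicate number were correlated. With that number as a block in the edgeR test, 32 were lower. The log2 fold change was below 0 for 68 of 75 members (90.7%, against 51.7% of all features), and the median was -0.29 against -0.02. The changes were small. Only Mrpl52 and Mrps18b passed the threshold at 2-fold or more, which 12.7% of all features did. In 39 members every P2+ library lay below every P2- library (52.0%, against 25.1% of features), and in 0 above (against 24.8%). The 28 lower members were all among those 39. The WT mean lay between the P2- and P2+ means in 27 of them and the RUNX1C KO mean in 24. WT and RUNX1C KO cells were not separated by P2 activity, so a mixture alone can place a mean there. The share over all features was not computed, so these counts say nothing particular about the members.

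**Figure D3:**
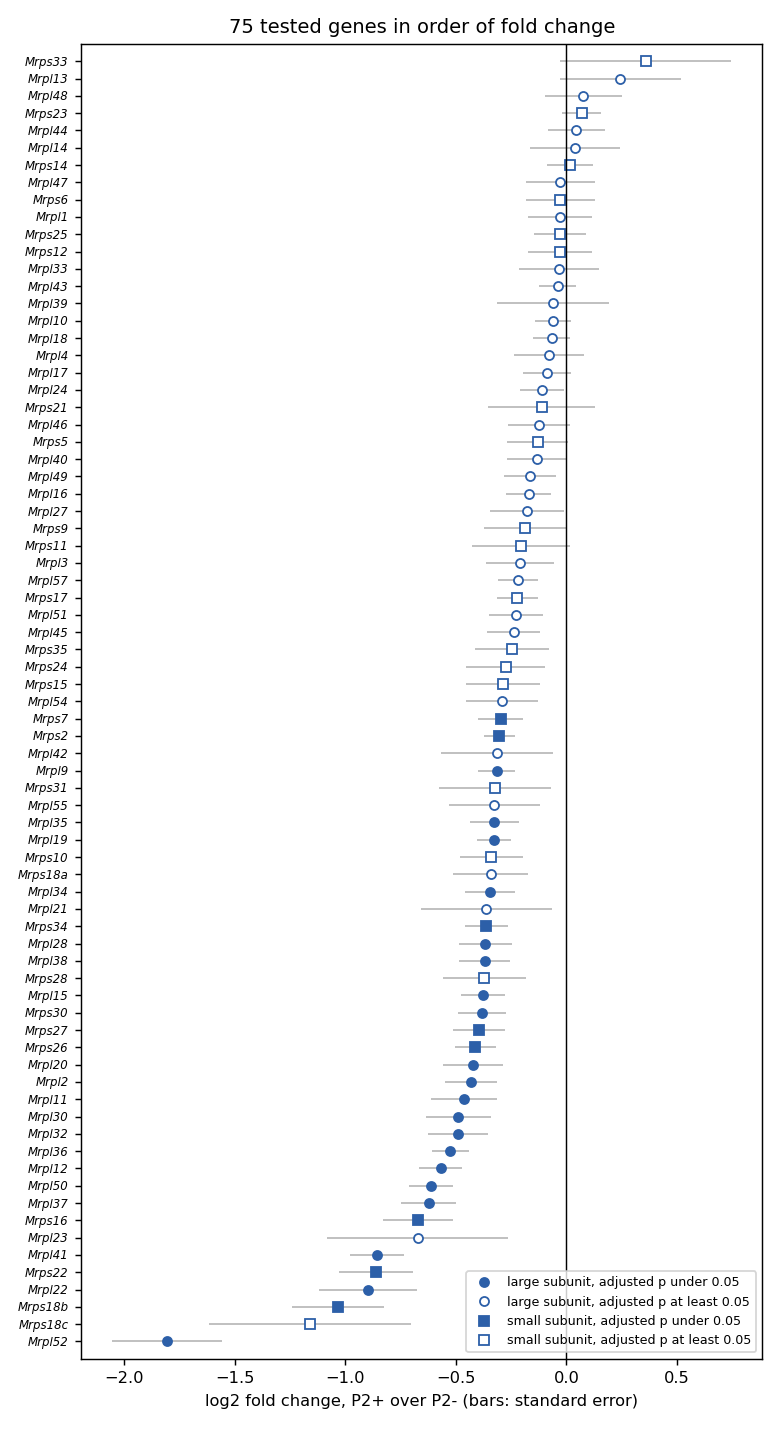
Log2 fold change of P2+ over P2- PreMegEs (x axis, bars for the standard error) for the 75 tested members in order (y axis), with circles for the large and squares for the small subunit and filled symbols for an adjusted p under 0.05. The 28 filled symbols all lie below 0, from -0.30 for Mrps7 to -1.81 for Mrpl52.

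The lower members were found in both subunits. Over all features 17.0% were lower and 20.1% higher, the shares to set beside each count that follows. In the large subunit 20 of 49 tested members were lower (40.8%, median -0.31), and in the small subunit 8 of 26 (30.8%, median -0.28). Members listed as homologues of bacterial proteins were lower in 17 of 46 (37.0%, median -0.29). Those listed as proteins of mitochondrial ribosomes alone were lower in 11 of 29 (37.9%, median -0.29). The second list included Mrps18a and Mrps18b, although they belong to the S18 family, and the first included Mrps18c and Mrpl55, so the split is approximate. Of the members with no exon shared with another gene, 18 of 44 were lower (median -0.32), and of those overlapping a gene on the other strand 10 of 26 (median -0.19). Of those overlapping a gene on the same strand, which strand-specific counting cannot separate either, 1 of 6 was lower (median -0.25), near the share of all features. Of the 17 members whose copies held at least 10% of the counts, 16 were tested and 4 were lower (median -0.23), and of the other members 24 of 59 (median -0.30). With counts of each gene and its copies added together, 30 of 76 were lower and 0 higher. Over all genes the fold change rose with exonic length, from a median of -0.10 in the shortest of 4 equal length classes to 0.05 in the longest. The members had medians of -0.29, -0.31, -0.33 and -0.17 in the same classes.

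Among the proteins of the large subunit, Mrpl52 (GRCm38, chr14:54426909-54429756, plus strand), found only in mitochondrial ribosomes, fell the most. It had 11.5, 12.2 and 9.45 CPM in P2- and 2.26, 3.11 and 3.97 CPM in P2+ libraries. WT libraries had 9.01, 8.11 and 7.65 CPM and RUNX1C KO libraries 11.4, 8.55 and 9.10 CPM, all above the highest P2+ library. The log2 fold change was -1.81 (SE 0.25, adjusted p = 6.25e-04). Mrpl22, the homologue of the bacterial protein L22 at the exit tunnel, had 9.47, 6.44 and 7.83 CPM in P2- and 4.27, 3.94 and 4.42 CPM in P2+ libraries. It fell by 0.90 on the log2 scale (SE 0.22, adjusted p = 0.0124), and without replicate 1 of P2- it no longer passed (adjusted p = 0.0543). Mrpl41, found only in mitochondrial ribosomes, had 59.8, 59.8 and 63.7 CPM in P2- and 32.8, 28.9 and 38.6 CPM in P2+ libraries. The groups were far apart, with a log2 fold change of -0.86 (SE 0.12, adjusted p = 7.24e-04), and all WT (43.2 to 48.3 CPM) and RUNX1C KO libraries (44.8 to 52.7 CPM) lay between them.

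Mrpl37 and Mrpl50, both proteins of mitochondrial ribosomes alone and encoded on chromosome 4, fell by 0.62 (SE 0.12, adjusted p = 0.00431) and 0.61 (SE 0.10, adjusted p = 0.00148) on the log2 scale. Mrpl50, the member with the highest CPM, had 163, 124 and 141 CPM in P2- and 94.1, 89.1 and 94.0 CPM in P2+ libraries. Mrpl12, the homologue of L7/L12, which forms the stalk that receives translation factors, had 73.2, 78.7 and 69.1 CPM in P2- and 45.7, 53.2 and 48.7 CPM in P2+ libraries. It fell by 0.57 on the log2 scale (SE 0.10, adjusted p = 0.00182), and by 0.56 with the counts of its copies added. Mrpl36, the homologue of the small bacterial protein L36, had 50.7, 50.4 and 50.3 CPM in P2+ against 72.0, 77.7 and 70.1 CPM in P2- libraries (log2 fold change -0.52, SE 0.08, adjusted p = 0.00134). Exons of Mrpl12, Mrpl36 and Mrps18b overlap Gm16755, Ndufs6 and Gm16279 on the other strand, and the strand setting of the counting is not stated, so reads of such pairs may not be separated.

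In the small subunit Mrps18b (chr17:35910379-35916389, minus strand), a member of the S18 family, had 5.86, 6.28 and 6.02 CPM in P2+ and 11.9, 9.90 and 15.7 CPM in P2- libraries. It fell by 1.03 on the log2 scale (SE 0.21, adjusted p = 0.00439). Added to its copy Gm13552 it fell by 0.86 (SE 0.13, adjusted p = 8.59e-04), under 2-fold. Mrps22, a protein of mitochondrial ribosomes alone, had 12.7, 11.1 and 13.8 CPM in P2- and 7.12, 6.70 and 6.71 CPM in P2+ libraries, without overlap (log2 fold change -0.86, SE 0.17, adjusted p = 0.00393). Mrps16, the homologue of bacterial S16, had 15.6, 18.2 and 15.7 CPM in P2- and 9.30, 11.3 and 10.1 CPM in P2+ libraries (log2 fold change -0.67, SE 0.16, adjusted p = 0.00978). Mrps18c, of the S18 family, had a log2 fold change of -1.16 (SE 0.46) that did not pass (adjusted p = 0.0769). At the other end of the order stood Mrps33 (log2 fold change 0.36, SE 0.39) and Mrpl13 (0.24, SE 0.27), and in both the libraries of the groups overlapped. Leaving out 1 library at a time left 16 to 22 members lower and 0 higher, and without replicate 2 of both groups 22 were lower.

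**Figure D4:**
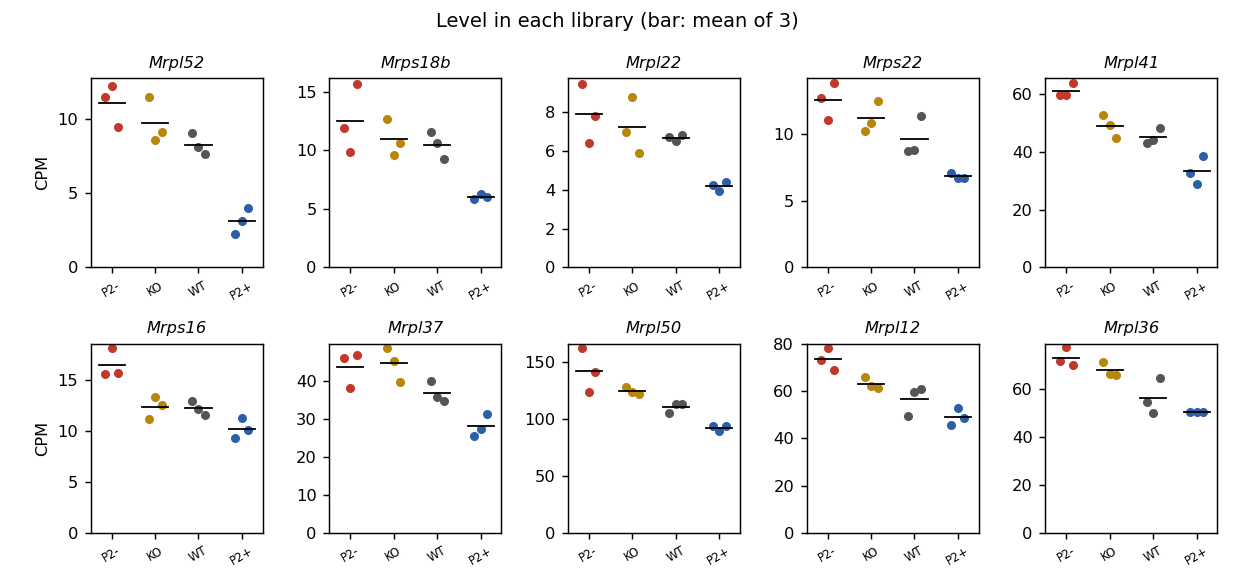
Level (y axes, CPM, from 0) of the 10 members with the largest fall past the threshold in P2+ against P2- PreMegEs, in each library of the 4 groups (points, with the mean as a bar). In all 10 the 3 P2+ libraries lay below the 3 P2- libraries, and Mrpl52 had 2.26 to 3.97 CPM in P2+ against 7.65 CPM or more elsewhere.

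Markers of both lineages moved with the same groups. Of 10 erythroid markers tested, 9 were lower in P2+ than in P2- PreMegEs (against 17.0% of all features), and their summed level was 1301 to 1506 CPM in P2+, 3310 to 3815 in WT, 5599 to 6299 in RUNX1C KO and 5851 to 6634 in P2- libraries. The group means followed the order of the summed mitochondrial ribosomal protein genes, although P2- and RUNX1C KO libraries overlapped. Of 10 megakaryocyte markers tested, 9 were higher in P2+ (against 20.1% of all features), with sums of 959 to 1445 CPM in P2+, 608 to 709 in WT, 407 to 445 in RUNX1C KO and 160 to 223 in P2- libraries. Defining genes of mature cells were low throughout, with Hba-a1, an alpha globin, at a mean of 0.284 CPM and Gp6, a platelet receptor, at 0.222 CPM over the 12 libraries. Against the same 20.1%, neutrophil and monocyte markers were higher in P2+ in 6 of 9 tested (sums of 302 to 438 CPM in P2+, 60.0 to 119 in P2-) and lymphoid markers in 4 of 6 (28.4 to 80.2 against 11.5 to 18.4). Of 4 mast cell and basophil markers tested, 3 were higher, namely Cpa3, a mast cell protease (means of 39.1 against 16.7 CPM), Ms4a2, a chain of the IgE receptor (70.6 against 9.20 CPM), and Fcer1a, another chain of it (1.91 CPM against 0 in each P2- library). Gata2, a factor of progenitors as well as mast cells, held most of the sum of that list and did not pass (986 against 919 CPM). The part of these cells in the lower values of the members was not tested.

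Promoters were read from RefSeq (GRCm38.p6, 250 bases before to 50 after each start), which matched 68 of the 77 members with 74 promoters. The letters CCGGAAG, read on either strand as a site of ETS factors such as GABP, were in 33.8% of the member promoters, against 18.2% of the 11207 promoters of genes tested in P2+ and P2- PreMegEs and 8.86% of all 32851. The YY1 letters AAGATGGC were in 16.2% of member promoters (4.60% of those of tested genes and 2.75% of all) and the NRF1 letters GCGCATGC in 10.8% (5.47% and 2.71%). GGGCGG, a site of Sp1, was in 52.7% (62.9% and 35.7%). Of the 24 members with a promoter that were lower in P2+ PreMegEs, 8 held the ETS letters, 6 those of YY1, 4 those of NRF1 and 8 those of Sp1, against 25, 12, 8 and 34 of all 68. The promoters of Mrpl52 and Mrps18b are shown because these had the largest falls past the threshold. No member rose past the threshold, so none is shown for a rise. Capitals mark the matches.
Mrpl52: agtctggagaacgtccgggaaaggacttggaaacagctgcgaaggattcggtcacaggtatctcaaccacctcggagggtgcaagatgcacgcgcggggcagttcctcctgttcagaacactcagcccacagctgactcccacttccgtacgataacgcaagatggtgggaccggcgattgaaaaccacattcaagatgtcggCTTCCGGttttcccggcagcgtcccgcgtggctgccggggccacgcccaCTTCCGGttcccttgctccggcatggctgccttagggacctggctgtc
Mrps18b: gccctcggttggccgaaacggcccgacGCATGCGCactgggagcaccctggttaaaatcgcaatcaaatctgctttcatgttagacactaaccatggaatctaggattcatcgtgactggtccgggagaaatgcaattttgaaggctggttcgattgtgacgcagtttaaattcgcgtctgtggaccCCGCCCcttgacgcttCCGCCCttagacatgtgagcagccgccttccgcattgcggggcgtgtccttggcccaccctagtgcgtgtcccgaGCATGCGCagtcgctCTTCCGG
The Mrpl52 promoter (chr14:54426659-54426958, plus strand) held the ETS letters on the opposite strand, from -47 and from 2 with the start at 0. The Mrps18b promoter (chr17:35916391-35916690, minus strand) held those of NRF1 from -223 and from 28, of Sp1 from -63 and -47, and of ETS factors from 43, all on the opposite strand. Positions count from the RefSeq start. The start of Mrps18b in GENCODE (35916389) lies downstream of this window, so all these matches precede it. A match of letters is not a bound site.

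The comparisons with WT share the 3 WT libraries with each other, and those of P2+ or P2- share libraries with the comparison above. Where 0 members are given for a direction, the count at an unadjusted p under 0.05 in the edgeR test was 1 for higher in P2+ than in WT, 0 for lower in P2- and 0 for lower in RUNX1C KO, and DESeq2 and exactTest called 0 in each. Against WT, 5 of 74 members tested were lower in P2+ PreMegEs (6.76%, against 7.07% of all features) and 0 higher (against 9.45%). The median was -0.13, against 0.00 for all features, and 53 of 74 log2 fold changes were below 0 (71.6%, against 49.7%). Only Mrpl52 passed at 2-fold or more, against 3.84% of features. It fell by 1.40 (SE 0.26, adjusted p = 0.00514) on the log2 scale. Mrps18b fell by 0.79 (SE 0.19, adjusted p = 0.0193), from 11.6, 10.6 and 9.25 CPM in WT libraries, and by 0.49 (adjusted p = 0.0265) with its copy. Mrpl41 fell by 0.43 (adjusted p = 0.0331) and Mrpl50 by 0.25 (adjusted p = 0.0396). Mrps28, a protein of the small subunit, had 15.3, 13.3 and 18.6 CPM in WT and 11.6, 10.6 and 7.93 CPM in P2+ libraries (log2 fold change -0.65, SE 0.20, adjusted p = 0.047). In P2- libraries it had 13.1, 11.8 and 14.3 CPM, with a mean below that of WT. Without 1 library at a time the count was 1 to 4, and Mrpl52 was the only one of the 5 to pass each time. In this comparison erythroid markers were lower in 8 of 10 tested, megakaryocyte markers higher in 6 and lower in 1 of 11, neutrophil and monocyte markers higher in 2 of 7, mast cell and basophil markers higher in 2 of 4 (Cpa3 and Ms4a2), and lymphoid markers in 0 of 6, and their part was not tested here either.

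P2- PreMegEs lay on the other side of WT. Of 75 members tested, 7 were higher (9.33%, against 6.85% of all features) and 0 lower (against 9.6%), with a median of 0.18 against 0.01. The log2 fold change was above 0 for 65 of 75 (86.7%, against 51.6% of features above and 48.4% below 0). All 7 were under 2-fold, a size that 4.68% of all features passed. Mrpl20, the homologue of bacterial L20, had 29.0, 33.1 and 30.3 CPM in P2- and 19.1, 20.7 and 23.7 CPM in WT libraries, and its log2 fold change was 0.54 (SE 0.13, adjusted p = 0.0168). Mrpl41 rose by 0.43 (SE 0.09, adjusted p = 0.00716), so that it was past the threshold on both sides of WT. Mrpl36, Mrpl12 and Mrpl50 rose by 0.38 (adjusted p = 0.0333), 0.38 (adjusted p = 0.0308) and 0.37 (adjusted p = 0.0282), and Mrpl19 and Mrps34 were the other 2. Exons of Mrps34 overlap Nme3 on the same strand, and its count is uncertain. In Mrpl12 the WT libraries had 49.6, 59.9 and 61.1 CPM, all below the lowest P2- library. The count was 2 with library totals as the only scaling and 1 to 6 without 1 library at a time, and Mrpl41 passed each time. In the same comparison erythroid markers were higher in 9 of 10 tested (against 6.85% of all features). Megakaryocyte markers were lower in 9 of 10, and neutrophil and monocyte markers in 5 of 8 (against 9.6%). Also lower were lymphoid markers in 4 of 6 and mast cell and basophil markers in 1 of 3 (Gata2). The part of these cells in the values of the members was not tested.

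In RUNX1C KO PreMegEs 2 of 75 members tested were higher than in WT (2.67%, against 6.18% of all features) and 0 lower (against 8.76%, or 14.9% in either direction), and neither reached 2-fold, which 3.41% of features did. The median was 0.11 against 0.00, and 57 of 75 log2 fold changes were above 0 (against 49.5% of all features above and 50.5% below 0). Mrpl20 had 28.1, 26.9 and 30.8 CPM, all above WT (log2 fold change 0.43, SE 0.12, adjusted p = 0.0235). Mrpl38, a protein of mitochondrial ribosomes alone, had 34.9, 32.1 and 35.0 CPM against 26.8, 25.2 and 28.3 CPM in WT (log2 fold change 0.34, SE 0.11, adjusted p = 0.0407). In 19 members every RUNX1C KO library lay above every WT library (25.3%, against 15.6%). The count was 0 in a fit over all 12 libraries and between 0 and 6 without 1 library. Markers of cell types moved with this comparison too. Against the same shares of all features, erythroid markers were higher than in WT in 8 of 10 tested, megakaryocyte markers lower in 6 and higher in 2 of 11, neutrophil and monocyte markers lower in 6 of 7, lymphoid markers lower in 2 of 6, and mast cell and basophil markers higher in 2 (Cpa3 and Ms4a2) and lower in 1 (Gata2) of 3, and their part in the values of the members was not tested. Whether the RUNX1C KO libraries were processed together with the others is not stated, so a batch and the knockout cannot be told apart.

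**Figure D5:**
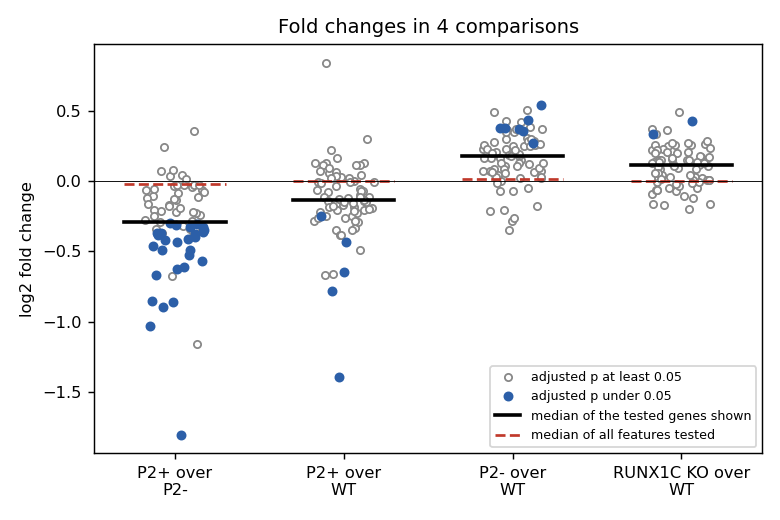
Log2 fold changes (y axis) of the tested members in each of 4 comparisons (columns), filled at an adjusted p under 0.05, with the median of the members (black line) and of all features tested (red dashes). The median of the members was -0.29 for P2+ over P2-, -0.13 for P2+ over WT, 0.18 for P2- over WT and 0.11 for RUNX1C KO over WT.

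Of 6 mitochondrial ribosome proteins that carry other names, all 6 log2 fold changes of P2+ over P2- were below 0 (median -0.31, with 51.7% of all features below 0) and 1 passed the threshold (16.7%, against 17.0% of all features). This was Gadd45gip1, a large subunit protein also known in the nucleus, which averaged 41.6 CPM (SD 1.33) over the P2+ libraries and 53.3 CPM (SD 5.08) over the P2- libraries (log2 fold change -0.35, adjusted p = 0.0264). Ptcd3 (-0.34) and Chchd1 (-0.28), both of the small subunit, had an adjusted p of 0.0542, and Dap3, a GTP-binding protein of the small subunit, had -0.39 with an adjusted p of 0.0929, all by the same edgeR test. Aurkaip1 (-0.14) and Ict1 (-0.09), the latter a peptide release factor built into the large subunit, overlapped between the groups. Dap3 was higher than in WT in both P2- (log2 fold change 0.46, adjusted p = 0.0266) and RUNX1C KO PreMegEs (0.36, adjusted p = 0.0292).

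In 4 lists of other genes of mitochondrial gene expression, some genes were lower in P2+ than in P2- PreMegEs and 0 were higher, against 17.0% and 20.1% of all features. Of 13 translation factors, 3 were lower (23.1%, median -0.16), namely Mtif2, an initiation factor (log2 fold change -0.61, adjusted p = 0.01), Gfm2, which acts in ribosome recycling (-0.59, adjusted p = 0.00631), and Gfm1, an elongation factor (-0.43, adjusted p = 0.0104). Of 20 aminoacyl-tRNA synthetases and related enzymes 5 were lower (25%, median -0.30), led by Iars2 (-0.59), Tars2 (-0.54), Hars2 (-0.53) and Wars2 (-0.43), which charge tRNAs with isoleucine, threonine, histidine and tryptophan. Of 22 assembly factors 5 were lower (22.7%, median -0.25), with Mpv17l2 (-0.75), Mettl17 (-0.67), Noa1 (-0.56) and Wbscr16 (-0.54) the furthest. The shares of these 3 lists were near that of all features. Among 11 genes for transcription and replication of the mitochondrial genome 5 were lower (45.5%, median -0.37). Lrpprc, which stabilises mitochondrial messenger RNAs, averaged 20.2 CPM over the P2+ and 35.7 CPM over the P2- libraries without overlap (log2 fold change -0.81, SE 0.12, adjusted p = 8.91e-04). Polg2 (-0.56), Peo1 (-0.37) and Polg (-0.35), subunits of the mitochondrial DNA polymerase and its helicase, followed.

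Against WT fewer of these genes passed. In P2+ PreMegEs 1 of 13 translation factors (7.69%), 2 of 20 synthetases (10.0%), 2 of 22 assembly factors (9.09%) and 4 of 11 transcription and replication genes (36.4%) were lower and 0 higher, against 7.07% and 9.45% of all features, with Mtif2 (-0.55), Hars2 (-0.50), Iars2 (-0.41), Mettl17 (-0.70), Mtg2 (-0.55), Polg2 (-0.68) and Lrpprc (-0.45) the furthest in their lists. P2- PreMegEs had 1 of 13 translation factors (Gfm2, 0.33) and 1 of 22 assembly factors (Noa1, 0.38) higher, against 6.85% of all features, and 0 in the other 2 lists. RUNX1C KO PreMegEs had the same 2 genes higher (0.34 and 0.32) with 2 of 20 synthetases (Mars2, 0.40, and Yars2, 0.38) and 1 of 11 transcription and replication genes (Polg, 0.27), against 6.18% of all features.

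Of 9 tested regulators of nuclear genes for mitochondria, 1 was higher and 2 were lower in P2+ than in P2- PreMegEs (11.1% and 22.2%, against 20.1% and 17.0% of all features). Gabpb1, a subunit of GABP, was higher in P2+ than in P2- PreMegEs (139.5 ± 7.96 against 77.4 ± 1.80 CPM, SD, n = 3, log2 fold change 0.86). Pprc1, a coactivator related to PGC-1, was lower (199.6 ± 8.71 against 325 ± 20.5 CPM, SD, n = 3, log2 fold change -0.69), and so was Myc (398 ± 2.37 against 791 ± 139.9 CPM, SD, n = 3, log2 fold change -0.98). The other 6 tested regulators, with Nrf1, Gabpa and Yy1 among them, did not pass. In WT all 3 means lay between those of P2+ and P2- PreMegEs, at 110.0, 241 and 645 CPM. Against WT, 1 of 9 was higher in P2+ PreMegEs (Gabpb1, log2 fold change 0.35) and 2 were lower (Myc, -0.69, and Pprc1, -0.27), with 9.45% of all features higher and 7.07% lower. In P2- PreMegEs 1 was higher (Pprc1, 0.43) and 1 lower (Gabpb1, -0.50), against 6.85% and 9.6%. In RUNX1C KO PreMegEs 2 were higher (Pprc1, 0.37, and Gabpb2, 0.20) and 1 lower (Gabpb1, -0.34), against 6.18% and 8.76%.

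The messenger RNAs of the mitochondrial genome are the templates of these ribosomes. Of 13, 7 were tested in P2+ against P2- PreMegEs and 1, mt-Nd1, was lower (14.3%, against 17.0% of all features, log2 fold change -0.45, adjusted p = 0.016). The other 6 (mt-Co2, mt-Co3, mt-Atp6, mt-Atp8, mt-Nd3 and mt-Nd4l) were listed at 0 in every library, among them genes every cell uses, so the sum covers 7 of the 13. The reason was not tested. This summed level overlapped between the groups, at 17413 to 22908 CPM in P2+ and 19899 to 28493 CPM in P2- libraries. Against WT, mt-Nd6 was higher in P2+ PreMegEs (log2 fold change 1.08, adjusted p = 0.0241). The 2 ribosomal RNAs of mitochondria, which poly(A) selection captures only in part, had sums of 1163 and 1373 CPM in replicate 2 of P2- and of P2+, against 556 to 833 CPM in the other 10 libraries.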

How the data were processed

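RNA-Seq counts of 12 PreMegE libraries were used. The authors prepared strand-specific poly(A) libraries from 50 ng of total RNA, sequenced them as paired reads of 75 bases, used Bowtie2 for alignment to GRCm38 and featureCounts for counting over Ensembl release 76 genes, and deposited the raw counts. The submitters' processing notes also name SAMtools 0.1.19, R 3.1.0 and edgeR 3.8.5. The counting setting for strand and for reads with several alignments is not given in the sources used here. Bowtie2 does not align reads across introns, so counts can fall on processed pseudogenes.

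Groups were compared 3 against 3 with edgeR 4.0.16 in R 4.3.3 (at least 1 CPM in at least 3 of 6 libraries, TMM scaling, quasi-likelihood F-test, Benjamini-Hochberg adjustment over all features, threshold 0.05). The fit was also run on simulated data with a fixed dispersion and unpaired libraries, unlike these data, and no result here rests on that run. Lengths and overlaps came from GENCODE vM21 (76 members matched), pseudogene copies from blastn 2.17.0 (at least 90% identity, 150 bases and 50% of the coding sequence) and promoters from RefSeq. Members and lists were chosen with earlier results of these data known. Named were the 10 (5 against WT) largest calls in each direction, the 5 highest and 5 lowest members by RPKM, members under the filter, and the largest calls of each list (4, or 2 against WT). Names outside this rule (Mrpl19, Mrps34, Mrps7, Mrps33, Kit, Fos, genes with pseudogene copies, the marker genes) were chosen after their values were seen. Deviations from the group mean correlated between P2+ and P2- libraries that share a replicate number, at 0.385, 0.572 and 0.406 over 13272 genes, so the numbers were taken to pair them. In the other comparisons they do not. Between libraries of one group the chi-square per degree of freedom was 4.49 to 32.8, so no library was a repeat deposit. Alternatives were DESeq2 1.42.0 and its size factors, library totals, edgeR's exactTest, other filters, protein_coding features alone, 1 fit over 12 libraries, a replicate block, leaving out libraries, and adding counts of copies, the last chosen after seeing the data.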

Additional observations from a re-analysis of the deposited data

How the results depend on the processing

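For P2+ against P2- PreMegEs every alternative gave 0 members higher, and 23 to 32 lower where all libraries were kept and no minimum fold was set. A minimum of 2-fold left 2 lower, and leaving out 1 library gave 16 to 22 (16 without P2- replicate 1 or P2+ replicate 3, and 18 without P2+ replicate 1). With the replicate block, which the pairing calls for, 32 were lower, the same 28 and Mrpl45, Mrpl57, Mrps10 and Mrps17. For P2+ against WT the lower members numbered 5, with 8 at a minimum of 5 CPM, 3 with the replicate block, 1 at 2-fold and 1 to 4 with 1 library left out (1 without WT replicate 1 or 2 or P2+ replicate 1, and 2 without WT replicate 3). For P2- against WT the higher members numbered 7, with 2 under library totals alone, 2 with the replicate block, 0 at 2-fold and 1 to 6 with 1 library left out (1 without WT replicate 1 or 2, and 2, 4 and 3 without P2- replicate 1, 2 and 3). For RUNX1C KO against WT they numbered 2, with 1 under library totals alone, 4 without a filter, 0 in one fit over 12 libraries, 0 at 2-fold, 3 with the block and 0 to 6 with 1 library left out (6 without WT replicate 3, and 0 without WT replicate 1 or 2 or RUNX1C KO replicate 1 or 3). In these last 3 comparisons samples share only a number, so the block is no pairing. Adding counts of copies gave 30, 5, 8 and 3 calls. No direction of a named call reversed in the alternatives run. The mean summed level moved to 2597 CPM in P2- and 2185 in P2+ with library totals alone, to 2181 in P2+ with DESeq2's size factors, and to 2932, 2571, 2392 and 2766 CPM in P2-, WT, P2+ and RUNX1C KO over protein_coding features. The counts summed were the same in each setting, so these moves come from the divisor alone. Totals over protein_coding features are smaller than those over all features. Mrpl53 and Mrps36 had 10 counts or fewer in every library and stayed under the filter, and the reason was not tested.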
